A study of Mus musculus with 10 samples.

Results

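The catenins and plakoglobin were examined as 9 of the 24453 genes in the count table: *Ctnnb1*, *Jup*, *Ctnna1*, *Ctnna2*, *Ctnna3*, *Ctnnd1*, *Ctnnd2*, *Pkp4* and *Dsp*. The set was selected on measured values. *Jup*, the gene for plakoglobin, had stood out between the cell types in these same libraries, and the other 8 genes were taken as its relatives and binding partners. The levels of all 9 genes by cell type are therefore given as a description, with no p for their contrast. *Dsp* encodes desmoplakin, which is a plakin and not a catenin, and *Pkp4* encodes a plakophilin of the p120-catenin family.

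Catenins tie the tails of cadherins to the actin cytoskeleton at adherens junctions, including those that flank synapses. β-catenin also carries the canonical Wnt signal to TCF/LEF factors in the nucleus, and its free pool is held down by a destruction complex. Plakoglobin is the close relative of β-catenin that works with desmoplakin in desmosomes, the junctions of epithelia and heart muscle, which are sparse in brain parenchyma.

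The study compared layer 5 intratelencephalic projection neurons (IT-PNs) that do or do not express *Fezf2*, in mature mouse primary motor cortex (M1). All animals were male *Fezf2-Gfp* mice, hemizygous for the (Zfp312-EGFP)CO61GsatMmnc transgene on a Swiss Webster background, in which GFP is driven by *Fezf2* regulatory elements. Each received the retrograde tracer CTB-Alexa 647 in the left M1 at postnatal day 23 to 25, and layer 5 of the right M1 was dissected and dissociated at day 28 to 32. Sorting of living cells gave *Fezf2+ve* IT-PNs (GFP and tracer) and *Fezf2−ve* IT-PNs (tracer without GFP), and every one of the 5 animals gave both a *Fezf2+ve* and a *Fezf2−ve* library. The type of a cell was thus set by the transgene and the sorting gate. Cells of a library were pooled, so fewer cells of a type and less RNA per cell cannot be told apart.

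The 10 libraries held 89138 to 217738 reads on genes. A count of 0 allows a level of up to 3 reads, which was 13.8 to 33.7 CPM (counts per 1000000 reads on genes) depending on the library. The libraries were amplified by PCR without molecular identifiers, so these floors cover counting error only. The 9 genes together took 2922 reads, or 0.188% of the reads on genes, and 28 of their 90 values were 0. Only *Ctnna2*, *Ctnna3* and *Ctnnd2* had at least 3 reads in all 10 libraries. A pair of values, *Jup* in *Fezf2+ve* library 2 and *Ctnnd1* in *Fezf2+ve* library 3, held 63.2% of all reads on the 9 genes.

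**Figure D1:**
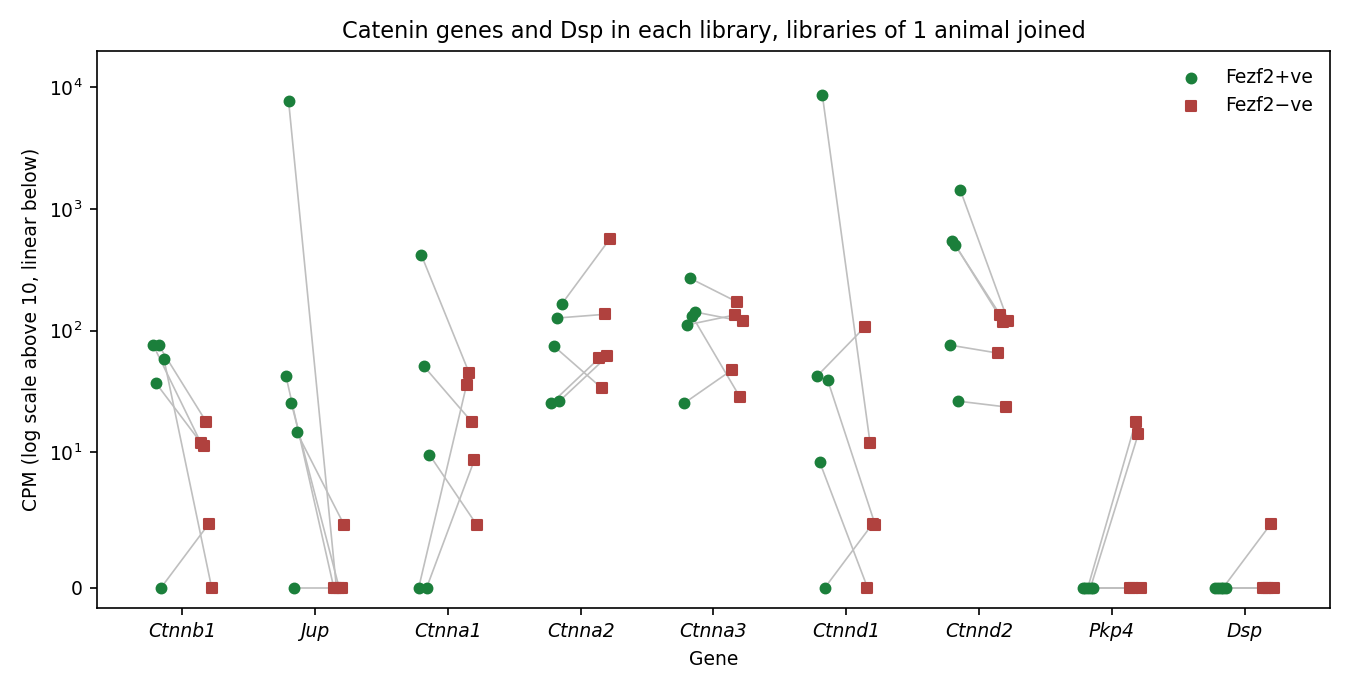
CPM of the 9 genes (log scale above 10, linear below) in *Fezf2+ve* (circles) and *Fezf2−ve* (squares) libraries, with the libraries of 1 animal joined. The single points of *Jup* at 7674 CPM and *Ctnnd1* at 8647 CPM lie far above all other values, and only *Ctnnd2* was higher in the *Fezf2+ve* library of all 5 animals.

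*Ctnnb1* encodes β-catenin, which binds cadherin tails and acts in canonical Wnt signaling. The gene lies at chr9:120929216-120960507 on the plus strand of GRCm38 and spans 31.3 kb. *Fezf2+ve* libraries 1 to 5 held 9, 4, 9, 0 and 12 *Ctnnb1* reads, against 2, 1, 3, 1 and 0 in the *Fezf2−ve* libraries of the same animals. The *Fezf2+ve* libraries of animals 1, 2, 3 and 5 (37.2 to 76.2 CPM) lay above every *Fezf2−ve* library (0 to 17.8 CPM), whereas *Fezf2+ve* library 4 had no read, so the groups overlapped. Mean levels were 49.7 ± 32.1 CPM in *Fezf2+ve* and 9.13 ± 6.89 CPM in *Fezf2−ve* IT-PNs (SD, n = 5 each). All *Fezf2−ve* counts were at or under the floor of 3 reads. The *Fezf2−ve* mean is therefore not a measured level, and the size of the fold change is uncertain. The fitted log2 fold change, *Fezf2+ve* over *Fezf2−ve*, was 2.22 (SE 1.44, edgeR with the animal as a block) and ranged from 1.46 to 2.78 when each animal was left out. Here and below, SE is the absolute log2 fold change divided by the square root of the F statistic of the edgeR test. It is not an error estimated apart from that test, and no test of the 9 genes is read from it. The 3′ part of *Ctnnb1* is overlapped on the opposite strand by *Ulk4*, which had 42 reads, 25 of them in *Fezf2−ve* library 5, where *Ctnnb1* had 0.

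*Jup* encodes plakoglobin, also called γ-catenin, and lies at chr11:100368958-100397763 on the minus strand, over 28.8 kb. *Fezf2+ve* libraries 1 to 5 held 5, 826, 3, 0 and 3 *Jup* reads, and the *Fezf2−ve* libraries 0, 0, 0, 0 and 1. Library 2 therefore carried 98.6% of all *Jup* reads, at 7674 CPM, where *Jup* ranked 20 among the 6677 genes with a read and took 0.767% of the reads. The other *Fezf2+ve* libraries reached 42.3 CPM at most, and *Fezf2+ve* library 4 had no read, as had 4 of the *Fezf2−ve* libraries. The mean of the *Fezf2+ve* libraries was 1551 ± 3423 CPM with library 2 and 20.6 ± 17.8 CPM (SD, n = 4) without it, against 0.919 ± 2.05 CPM in *Fezf2−ve* libraries (SD, n = 5). *Jup* was higher in the *Fezf2+ve* library of 4 animals and tied at 0 in animal 4.

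The fitted log2 fold change of *Jup* was 5.57 (SE 2.36) with the animal as a block and 4.35 in DESeq2 with the same block. In edgeR with the block it ranged from 3.33 (without animal 2) to 8.68 (without animal 5). Without the block it was 9.10, and 3.37 when *Fezf2+ve* library 2 was left out, or 10.34 without *Fezf2−ve* library 5, which held the only *Fezf2−ve* read. The values of 8.68 and 10.34 thus come from fits with no *Fezf2−ve* read of *Jup*, and reads do not set their size. Every *Fezf2−ve* count of *Jup* lay under the floor of 3 reads. None of these fold changes is therefore a measured size. The genes around *Jup* did not share the high value. Of 12 genes annotated within 100 kb, 4 had no read in any library and only *Eif1* (8 reads) and *Acly* (4 reads) had any in *Fezf2+ve* library 2. The largest count of any of the 12 in any library was 14.

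β-catenin and plakoglobin are built from like repeats, so the coding sequences of their genes were compared. The longest run shared by the GENCODE coding sequences of *Ctnnb1* and *Jup* was 20 nt, shorter than the shortest read kept (50 nt). It is printed in capitals with 12 coding bases on each side to show how fast the genes part. The *Ctnnb1* run lies at chr9:120952922-120952941 (plus strand) and the *Jup* run at chr11:100380606-100380625 (minus strand), both GRCm38 and each within 1 coding exon.
Ctnnb1: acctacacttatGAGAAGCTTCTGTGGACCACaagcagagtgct
Jup: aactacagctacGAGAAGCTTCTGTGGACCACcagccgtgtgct
Over all 36 pairs of the 9 genes, the longest shared coding run was 11 to 37 nt (median 13), so no pair shared an exact coding run as long as the shortest read kept. Reads in introns and untranslated regions are outside this comparison, and sharing of reads between genes was not tested. The longest, 37 nt, was shared by *Ctnna1* and *Ctnna3*. *Fezf2+ve* library 2, with 826 *Jup* reads, held 4 *Ctnnb1* reads. Over all 10 libraries Pearson's r of log2(CPM + 1) between *Jup* and *Ctnnb1* was 0.50, and without that library 0.60.

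The α-catenins link β-catenin or plakoglobin to actin. *Ctnna1* encodes αE-catenin, the widely expressed form, and lies at chr18:35118859-35254779 on the plus strand, over 136 kb. *Fezf2+ve* libraries 1 to 5 held 0, 45, 6, 0 and 2 *Ctnna1* reads and *Fezf2−ve* libraries 6, 4, 3, 2 and 1. The *Fezf2−ve* libraries all had a read, while the *Fezf2+ve* libraries ran from 0 to 418 CPM and spanned the whole *Fezf2−ve* range. Means were 95.7 ± 181 CPM in *Fezf2+ve* and 22.5 ± 17.2 CPM in *Fezf2−ve* IT-PNs (SD, n = 5 each), a ratio of 4.26. Without *Fezf2+ve* library 2 the *Fezf2+ve* mean was 15.2 ± 24.2 CPM and the ratio 0.674, so the direction turned on that library, which also held the *Jup* peak. Its fitted log2 fold change was 0.32 (SE 1.66) with the animal as a block, and without the block 1.77, or -0.52 when *Fezf2+ve* library 2 was left out. With the block it ranged from -0.74 to 1.08 when each animal was left out, and was below 0 without animal 2 (-0.74), 3 (-0.26) or 5 (-0.01). DESeq2 gave 0.01, so no direction can be given for this gene.

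*Ctnna2* encodes αN-catenin, the neural form that steadies dendritic spines, at chr6:76881637-77979699 on the minus strand, over 1098 kb. Its reads numbered 3, 8, 15, 4 and 34 in *Fezf2+ve* libraries 1 to 5 and 10, 3, 23, 13 and 124 in the *Fezf2−ve* libraries. It was detected in all 10 libraries and was lower in the *Fezf2+ve* library of 4 animals. The groups overlapped, at 25.4 to 167 CPM in *Fezf2+ve* and 33.7 to 569 CPM in *Fezf2−ve* libraries. Means were 84.1 ± 62.5 CPM in *Fezf2+ve* and 172 ± 225 CPM in *Fezf2−ve* IT-PNs (SD, n = 5 each). *Fezf2−ve* library 5 held 52.3% of the reads at 569 CPM. Without it the *Fezf2−ve* mean was 72.8 ± 44.2 CPM, and the ratio of *Fezf2−ve* over *Fezf2+ve* means went from 2.05 to 0.866. With the block the fitted log2 fold change was -0.62 (SE 1.00), and without the block -1.15, or 0.27 when *Fezf2−ve* library 5 was left out. With the block it ranged from -1.02 to -0.41 when each animal was left out.

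*Ctnna3* encodes αT-catenin, best known from heart muscle, and is the longest of the 9 genes, at chr10:63430098-65003667 on the plus strand and over 1574 kb. *Fezf2+ve* libraries 1 to 5 held 3, 12, 32, 20 and 29 reads and *Fezf2−ve* libraries 8, 12, 29, 6 and 26. It was the most evenly read of the 9 genes: no library held more than 18.1% of its reads, and the *Fezf2−ve* values lay within the *Fezf2+ve* range. Means were 136 ± 88.2 CPM in *Fezf2+ve* and 100.4 ± 60.4 CPM in *Fezf2−ve* IT-PNs (SD, n = 5 each), with a fitted log2 fold change of 0.42 (SE 1.02) that reached -0.05 when animal 4 was left out.

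*Ctnna2* and *Ctnna3* are the α-catenins read in every library, and their longest shared coding run was again 20 nt. It lies at chr6:76932358-76932377 (minus strand) in *Ctnna2* and at chr10:64873311-64873330 (plus strand) in *Ctnna3*, within 1 coding exon of each, and is shown in capitals with 12 coding bases on each side as the closest coding stretch of the pair. Introns and untranslated regions, where reads also fall, were not compared.
Ctnna2: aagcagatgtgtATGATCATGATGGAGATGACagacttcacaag
Ctnna3: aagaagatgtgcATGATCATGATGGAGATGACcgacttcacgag

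Each α-catenin gene holds a gene for a leucine-rich synaptic adhesion protein within an intron, on the opposite strand. Counting took reads over the whole span of a gene on either strand, as *Lrrc17* within *Fbxl13*, an example chosen after its values were seen, makes plain: these genes lie on opposite strands and had equal counts in 7 of 10 libraries, with a difference of at most 2 reads at counts of 22 to 1244. Reads on *Lrrtm3* (chr10:63928472-64090277) can therefore also stand among those on *Ctnna3*. *Lrrtm3* had 1, 1, 22, 0 and 6 reads in *Fezf2+ve* libraries 1 to 5 and 4, 1, 1, 0 and 0 in the *Fezf2−ve* libraries, together 20.3% of the *Ctnna3* count. In *Fezf2+ve* library 3, the library with the most *Ctnna3* reads, 22 of the 32 could be those of *Lrrtm3*, which leaves 10. With the *Lrrtm3* reads taken off, a check chosen after seeing the data, *Ctnna3* had 66 reads in *Fezf2+ve* and 75 in *Fezf2−ve* libraries, at means of 89.8 ± 44.2 and 92.2 ± 63.1 CPM (SD, n = 5 each), and its fitted log2 fold change fell from 0.42 to 0.08, so no difference between the types can be given for it. *Lrrtm1* within *Ctnna2* had 6 reads, all in *Fezf2−ve* library 3 (2.53% of the *Ctnna2* count), and *Lrrtm2* within *Ctnna1* had 2, both in *Fezf2+ve* library 3 (2.90%). In all 10 libraries the count of the inner gene was no larger than that of its host, and without strand the reads of the 2 genes of each pair cannot be told apart.

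The p120 family binds the part of the cadherin tail next to the membrane and governs how long cadherins stay at the surface. *Ctnnd1* encodes p120-catenin itself, at chr2:84600071-84650765 on the minus strand, over 50.7 kb. *Fezf2+ve* libraries 1 to 5 held 5, 1, 1021, 0 and 8 *Ctnnd1* reads and *Fezf2−ve* libraries 18, 0, 2, 1 and 1. *Fezf2+ve* library 3 held 96.6% of all *Ctnnd1* reads, at 8647 CPM, and there *Ctnnd1* ranked 25 and took 0.865% of the reads. The *Fezf2−ve* libraries had a high value of their own, 107 CPM in library 1, and all their other values were at or below 11.9 CPM. Means were 1748 ± 3857 CPM in *Fezf2+ve* and 25.7 ± 45.8 CPM in *Fezf2−ve* IT-PNs (SD, n = 5 each), a ratio of 68.1, and without *Fezf2+ve* library 3 the *Fezf2+ve* mean was 22.7 ± 21.3 CPM and the ratio 0.886. For *Ctnnd1* the fitted log2 fold change was 2.03 (SE 2.04) with the animal as a block. When each animal was left out it ranged from 0.44 (without animal 3) to 3.61 (without animal 1). Without the block it was 5.90, against -0.01 when *Fezf2+ve* library 3 was left out and 7.68 when *Fezf2−ve* library 1 was left out.

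*Ctnnd2* encodes δ-catenin, the neural member of the p120 family that sits at dendrites and postsynaptic sites. It lies at chr15:30172593-31029341 on the plus strand, over 857 kb. *Fezf2+ve* libraries 1 to 5 held 9, 59, 60, 4 and 290 reads, which is 76.2, 548, 508, 26.4 and 1426 CPM. The *Fezf2−ve* libraries held 11, 12, 20, 5 and 26 reads, which is 65.5, 135, 119, 23.7 and 119 CPM. *Ctnnd2* was the only one of the 9 genes that was higher in the *Fezf2+ve* library of all 5 animals in CPM. The margin was wide in animals 2, 3 and 5. In animals 1 and 4 the *Fezf2+ve* library held fewer *Ctnnd2* reads and was higher only relative to its depth, and both lay within the *Fezf2−ve* range, so the groups overlapped. Means were 517 ± 562 CPM in *Fezf2+ve* and 92.3 ± 46.5 CPM in *Fezf2−ve* IT-PNs (SD, n = 5 each), a ratio of 5.60. *Fezf2+ve* library 5 held 58.5% of the reads, and without it the *Fezf2+ve* mean was 290 ± 277 CPM (SD, n = 4) and the ratio 3.14. The fitted log2 fold change was 1.69 (SE 1.08) with the block, with a range of 1.1 to 1.98 when each animal was left out. Without the block it was 2.61, or 1.38 without *Fezf2+ve* library 5.

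*Pkp4*, or p0071, is a relative of δ-catenin found at both adherens junctions and desmosomes, and lies at chr2:59160850-59355208 on the plus strand. It had no read in the *Fezf2+ve* libraries and 3 reads each in *Fezf2−ve* libraries 3 and 4. *Dsp* encodes desmoplakin, which anchors desmosomes to intermediate filaments, and lies at chr13:38151294-38198577 on the plus strand. It had 1 read in *Fezf2−ve* library 4 and was the only one of the 9 genes below the filter on low counts. Both genes were at or under the floor in both types, so no fold change is given. *Ctnnd2* and *Pkp4* share a coding run of 18 nt, at chr15:30887250-30887267 and chr2:59338869-59338886 (both plus strand), printed in capitals with 12 coding bases on each side because these are the closest relatives among the p120 family genes listed here by that measure.
Ctnnd2: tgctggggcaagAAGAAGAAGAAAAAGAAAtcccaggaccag
Pkp4: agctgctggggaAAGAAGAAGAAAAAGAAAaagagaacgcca
*Pkp4* stood at 0 in *Fezf2+ve* library 5 beside 290 *Ctnnd2* reads.

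**Figure D2:**
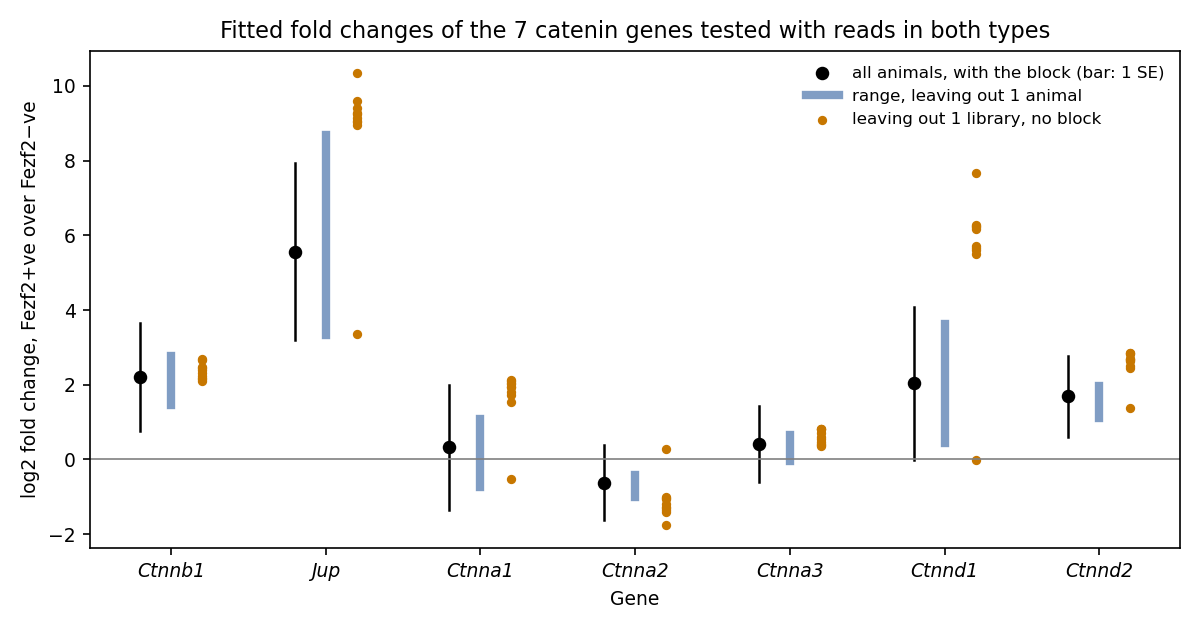
Fitted log2 fold changes, *Fezf2+ve* over *Fezf2−ve*, of the 7 tested catenin genes with reads in both types: the fit with the animal as a block (black, bar 1 SE), the range over leaving out each animal (blue), and the fit without the block after leaving out each single library (orange). The SE is derived from the F statistic of the edgeR test. *Jup*, *Ctnna1*, *Ctnna2* and *Ctnnd1* each had an orange point set apart from the others, at 3.37, -0.52, 0.27 and -0.01. *Ctnnd2* was at 1.38 without *Fezf2+ve* library 5, below its other orange points (2.44 to 2.85).

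Over all 7409 genes that passed the filter, edgeR with the animal as a block called 0 genes (0% of those tested) at an adjusted p of at most 0.1, although 288 had an unadjusted p under 0.05. Without the block edgeR called 279 genes (3.77%), and DESeq2 with the block called 98 (1.32%). Of the 8 members tested, 0 were called by edgeR with the block, 1 (*Jup*) without it and 0 by DESeq2. As *Jup* was chosen on this contrast, nothing is read from that count. The *Jup* call without the block was lost when any 1 of the 10 libraries was left out, and the number of genes called then was 15 without *Fezf2−ve* library 1 and 0 without any other. The *Jup* fold change fell to 3.37 without *Fezf2+ve* library 2. Without any other library it stayed at 8.96 to 10.34, against 9.10 with all libraries, and the fit at 10.34 had no *Fezf2−ve* read of *Jup*. The median fitted log2 fold change of all tested genes was -0.16.

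The peaks of *Jup* and *Ctnnd1* had many counterparts among other genes. Of 1445 genes with at least 100 reads, 486 (33.6%) had at least 90% of their reads in 1 library, and the median share of the most-read library was 77.7%. The limit of 100 reads was set on all libraries together, so a gene could pass it through its peak alone. *Jup* had 12 reads outside its most-read library and *Ctnnd1* 36, so both passed only in this way. The 33.6% is thus a share among genes chosen so, and the limit itself may raise it. Of the 5 members with at least 100 reads, *Jup* and *Ctnnd1* were over 90%, *Ctnnd2* (58.5%), *Ctnna2* (52.3%) and *Ctnna3* (18.1%) were not. The share in the most-read library was lower than that of *Jup* in 93.8% of the 1445 genes and lower than that of *Ctnnd1* in 82.6%. *Ctnna3* stood at the other end, as 0.346% of the genes were spread more evenly. The *Fezf2+ve* libraries 2 and 3 were the most-read library of 40 and 46 of the 486 genes. Among 33 ERCC spike-in transcripts with at least 100 reads, which were added to each sample as synthetic RNA, 1 had 90% of its reads in 1 library and the median share was 39.7%. Part of that share came from the number of ERCC reads per library, 6251 to 103498, and on CPM of ERCC reads the median was 18.6%, again with 1 transcript at 90%. On CPM the median share of the genes was 76.5%, with 470 (32.5%) at 90%.

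**Figure D3:**
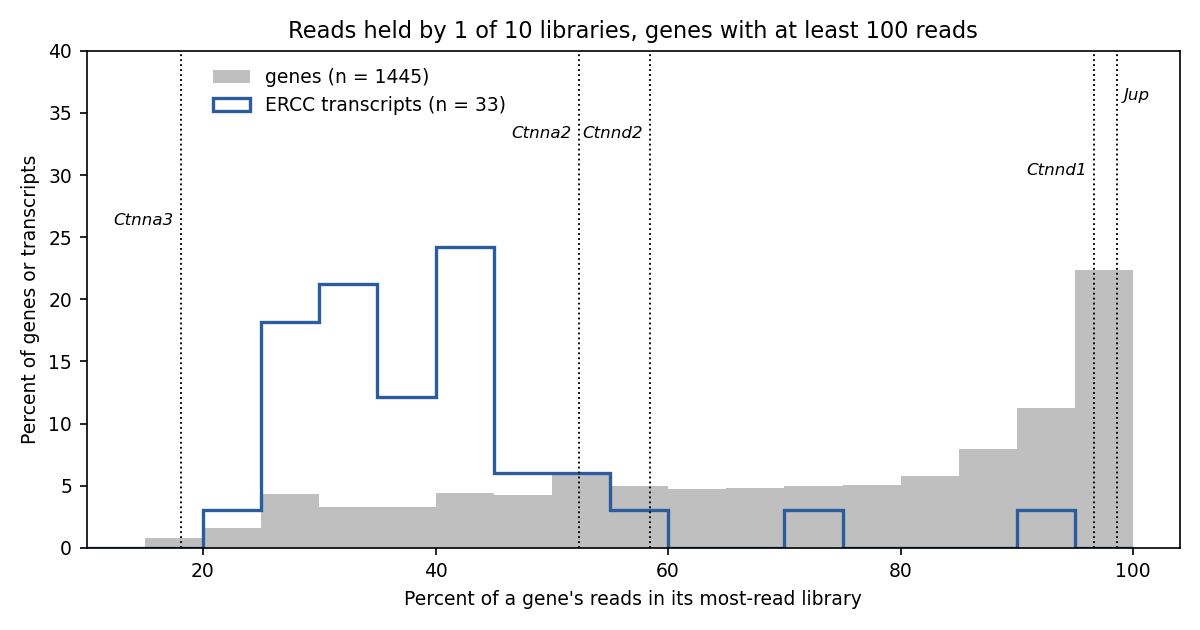
Share of reads in the most-read library (x axis, percent) for the 1445 genes (gray) and 33 ERCC transcripts (blue outline) with at least 100 reads, as a percent of each set (y axis). Dotted lines mark the 5 catenin genes in this range, from *Ctnna3* at 18.1% to *Jup* at 98.6%.

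The genes most like *Jup* over the 10 libraries, by Pearson's r of log2(CPM + 1), were *Ccdc73* (r = 0.94), *Gosr1* (0.91), *Arxes2* (0.90), *Napg* (0.90) and *Kif5a* (0.90), and all 5 had most of their reads in *Fezf2+ve* library 2. As these genes were chosen by r over all 10 libraries, the choice favored genes with a peak in that library. With that library left out r was 0.65 to 0.77 over the remaining 9, where *Jup* had at most 5 reads. These r values are of genes already chosen for likeness, and nothing more is read from them. Those most like *Ctnnd1* were *Lrrc28* (0.92), *Ptpru* (0.90), *Mtmr1* (0.88), *Clip4* (0.88) and *Megf11* (0.88), and each had most of its reads in *Fezf2+ve* library 3. Without that library r was 0.60 to 0.89, again for genes chosen over all 10 libraries. Among the other members, *Ctnnd2* was the most like *Jup* (r = 0.61) and *Ctnnb1* the most like *Ctnnd1* (r = 0.64). Without *Fezf2+ve* library 2 *Ctnnd1* (0.62, from 0.26), *Ctnnb1* (0.60) and *Ctnnd2* (0.60) were alike in r with *Jup*, and without *Fezf2+ve* library 3 *Ctnnb1* stood at 0.62 with *Ctnnd1*. All of these values share the same libraries and their depth, and are a description of 10 libraries.

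The order of the 9 genes depended on whether length was taken into account. In each animal the mean of log2(CPM + 1) over its libraries was taken, and neighbors in the order of the 5-animal means were compared by a two-sided exact sign-flip permutation test, for which 5 animals allow no p below 0.0625. In CPM the order was *Ctnnd2* (7.12 ± 1.65), *Ctnna3* (6.58 ± 1.02), *Ctnna2* (6.34 ± 1.29), *Ctnnd1* (4.27 ± 3.01), *Ctnna1* (3.87 ± 2.17), *Ctnnb1* (3.78 ± 1.66), *Jup* (2.95 ± 2.32), *Pkp4* (0.82 ± 1.12) and *Dsp* (0.25 ± 0.56; mean ± SD, n = 5). The order pooled both types. Among its top 3 genes the *Fezf2−ve* means alone ran the other way: *Ctnna2* 172, *Ctnna3* 100.4 and *Ctnnd2* 92.3 CPM. Without *Fezf2−ve* library 5 the *Ctnna2* mean was 72.8 CPM. The *Fezf2+ve* means of *Ctnna2*, *Ctnna3* and *Ctnnd2* were 84.1, 136 and 517 CPM, so the first place of *Ctnnd2* rested on the *Fezf2+ve* libraries. The 3 genes at the top were the longest of the 9, and most of their span is intron: exons make up 0.459% of *Ctnna3* and 22.3% of *Jup*. None of the 8 neighboring pairs passed an adjusted p of 0.1 (exact permutation p of 0.1875 to 0.875, adjusted p of 0.786 to 0.875 over the 8 pairs). A pair alone at the smallest p of 0.0625 has an adjusted p of 0.5 in this permutation test. The test could therefore not single out a pair, and nothing about equal levels is read from it.

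Levels of different genes were also set against each other per length, as log2 of CPM per kb of gene span plus 0.01. The library method is meant to read mainly the 3′ ends of transcripts, for which no length is needed, whereas reads in introns can grow with the span, so neither scale is exact. On that scale *Ctnnb1* (-1.57 ± 2.1) and *Ctnnd1* (-1.64 ± 3.25) led, followed by *Ctnnd2* (-2.49 ± 1.52), *Jup* (-2.83 ± 2.67), *Ctnna1* (-3.11 ± 2.08), *Ctnna2* (-3.54 ± 1.16), *Ctnna3* (-3.79 ± 0.84), *Pkp4* (-6.00 ± 0.88) and *Dsp* (-6.30 ± 0.77; mean ± SD, n = 5). The compact *Ctnnb1* thus moved up and the very long *Ctnna2* and *Ctnna3* moved down. The place of *Ctnnd1* turned on *Fezf2+ve* library 3, and without animal 3, a check chosen after seeing the data, it fell to place 4 at -2.72 ± 2.51, beside *Ctnnd2* (-2.68 ± 1.69) and *Jup* (-2.68 ± 3.06; SD, n = 4). Other places moved as well. *Jup* fell to place 5 without animal 2 (-3.71 ± 2.08; SD, n = 4), and *Ctnnd1* rather than *Ctnnb1* led without animal 2 or animal 4, so the order among the upper genes is not settled. *Ctnna3* was above *Pkp4* in all 5 animals, with the smallest exact permutation p that 5 animals allow (0.0625, adjusted p = 0.5 over the 8 pairs). *Pkp4* had reads in only 2 libraries, and per kb the floor at a count of 0 overlaps the *Ctnna3* levels. This order therefore rests on the 0.01 added, and nothing is read from it. The other 7 pairs had p of 0.5625 to 1. Across the 9 genes Spearman's rho between span and median CPM was 0.63, and between exon length and median CPM 0.20. Across 7172 tested genes with an annotated length, rho between span and mean CPM was 0.27; genes are not independent replicates, and these values are a description.

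**Figure D4:**
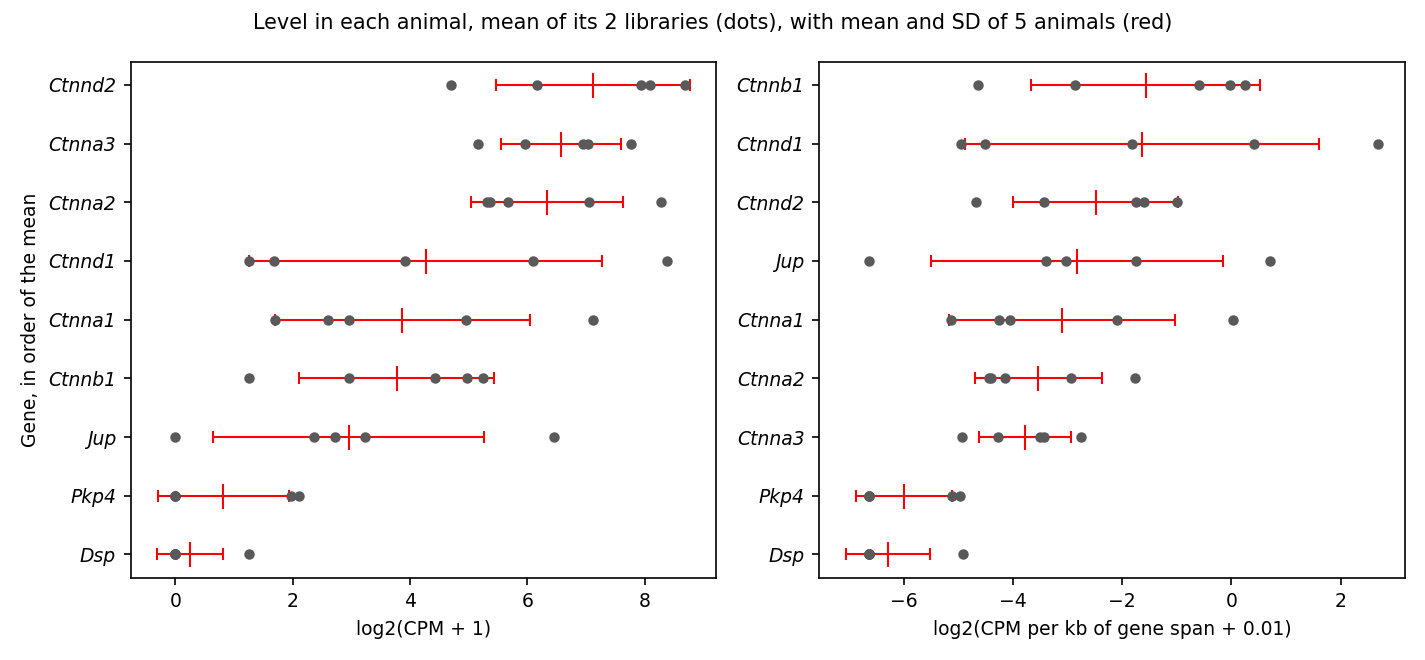
Level of the 9 genes in each of 5 animals (dots, mean of its libraries) with the mean and SD (red), as log2(CPM + 1) at left and log2(CPM per kb of gene span + 0.01) at right, each in the order of its means. *Ctnnd2* is at the top at left (7.12) and *Ctnnb1* at right (-1.57), and the spreads of most neighbors overlap.

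The partners of catenins, taken from lists that leave out the 9 genes, gave no call with the animal as a block. Of 91 partner genes 41 were tested, and edgeR with the animal as a block called 0 of them, as of all 7409 tested genes. An unadjusted edgeR p under 0.05 was found for 0 partners and for 288 of all tested genes. DESeq2 with the block called 0 partners, beside 1.32% of all genes, with no adjusted p for some genes of low count. Nothing about the partners is read from these counts. The fitted log2 fold change was above 0 for 18 and below 0 for 23, with a median of -0.22 beside -0.16 over all tested genes. Both medians moved with the libraries used: without animal 2 they were -0.93 and -0.31, and without animal 5 they were -0.03 and -0.29, so the partners then lay above the rest. Without the block edgeR called 4 of 41, beside 3.77% of all genes, and 0 after any 1 of the 10 libraries was left out. These were *Dvl3*, a Dishevelled that relays the Wnt signal, *Lrp5*, a Wnt co-receptor, *Fbxw11*, which marks β-catenin for breakdown, and *Erbb2ip*, a binder of p120 family proteins (edgeR without the block, adjusted p of 0.0931 for *Dvl3*, *Lrp5* and *Fbxw11* and 0.0945 for *Erbb2ip*).

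Those 4 genes were each read mainly in 1 *Fezf2−ve* library. *Dvl3* had 2715 of 2816 reads and *Erbb2ip* 1282 of 1324 in *Fezf2−ve* library 5, while *Lrp5* had 1832 of 1847 and *Fbxw11* 561 of 636 in *Fezf2−ve* library 4. With the animal as a block their fitted log2 fold changes were -3.24 (SE 1.71), -2.26 (SE 1.97), 0.21 (SE 1.28) and -2.81 (SE 1.99), all with an edgeR adjusted p of 0.998. *Lrp5* thus changed sign between the fits, from -7.23 without the block, and was higher in the *Fezf2+ve* library of 3 animals. Without the block and without its most-read library the fold change was -2.65 for *Dvl3*, -1.26 for *Erbb2ip*, 1.67 for *Lrp5* and -3.42 for *Fbxw11*. With any other library left out, those of all 4 genes stayed at -6.02 or lower, although the calls were lost.

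Cadherins are what catenins bind. Of 17 cadherins with a catenin-binding tail 10 were tested and 0 called by edgeR with the block, as over all 7409 tested genes. Of the 10, 4 fitted above and 6 below 0, with a median log2 fold change of -0.12. *Cdh2*, the N-cadherin of neurons, had 11, 4, 1, 3 and 2 reads in *Fezf2+ve* libraries 1 to 5 and 107, 6, 56, 5 and 8 in the *Fezf2−ve* libraries. It was lower in the *Fezf2+ve* library of all 5 animals, at 33.7 ± 35.1 CPM against 219 ± 266 CPM (SD, n = 5 each), with a fitted log2 fold change of -2.04 (SE 1.15, edgeR adjusted p = 0.998). *Fezf2−ve* library 1 held 107 of its 203 reads, and without it the *Fezf2−ve* mean was 115 ± 146 CPM (SD, n = 4) and the fold change without the block went from -2.46 to -1.66. *Cdh11* had 343 of its 364 reads in *Fezf2+ve* library 2, the library of the *Jup* peak. *Cdh7* (75 reads) and *Cdh20* (70 reads) were the next most read.

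Desmosome genes were close to absent. Of 15 desmosomal cadherins, plakophilins and linkers 10 had a read and 0 passed the filter, and the list took 17 reads over the 10 libraries, with at most 3 for a gene (*Dsg1b* and *Pkp2*) and 2 each for *Dsg1a* and *Dsc2*. *Fezf2+ve* library 2, with 826 *Jup* reads, had 2 reads on the list and 0 on *Dsp*. The 10 markers of keratinized epithelium, 3 of which are also on the desmosome list, had 5 reads in all libraries together and 0 in the *Fezf2+ve* libraries. The 7 others, among them *Krt5*, *Krt14* and *Lor*, were at 0 throughout.

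The lists around free β-catenin were the beta-catenin destruction complex, TCF/LEF factors with their coactivators, and Wnt receptors with Dishevelled. In the destruction complex 9 of 12 genes were tested, 4 fitted above and 5 below 0, with a median of -0.98. *Btrc* had 1264 of 1317 reads in *Fezf2−ve* library 5, *Apc2* 41 of 50 in *Fezf2−ve* library 2, and *Axin1* (68 reads) was spread over 7 libraries. Of 8 TCF/LEF factors and coactivators 2 were tested, *Tcf7l2* (3437 reads, 2287 of them in *Fezf2−ve* library 4) and *Tcf7l1* (43 reads), with a median of -0.37. *Lef1* had 6 reads and *Pygo2* 3. Of 18 Wnt receptors and Dishevelled genes 6 were tested, 3 fitted each way, with a median of -0.02; beside *Dvl3* and *Lrp5* the most read were *Ror1* (85 reads) and *Lrp6* (35 reads).

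Of the 4 relatives and inhibitors of catenins 3 were tested, 1 fitted above and 2 below 0, with a median of -0.81. *Ctnnal1*, or α-catulin, had 34 of 43 reads in *Fezf2−ve* library 5, *Arvcf*, of the p120 family, 18 of 30 in *Fezf2−ve* library 1, *Ctnnbl1* had 20 reads and *Ctnnbip1*, an inhibitor of the binding of β-catenin to TCF, had 3. Of the 7 actin linkers of α-catenin 5 were tested, 2 above and 3 below 0, with a median of -0.10, and *Lima1* (100 reads), *Tjp1* (93), *Actn4* (38) and *Mllt4* (36) were the most read. Of 10 PDZ partners of δ-catenin and β-catenin 6 were tested, 3 fitted each way, with a median of -0.25. *Magi1* had 3067 reads, with 1581 in *Fezf2−ve* library 4, *Magi2* had 2564 of 2742 in *Fezf2−ve* library 1, and *Lrrc7*, which codes for densin, had 541 of 607 in *Fezf2+ve* library 1.

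Markers of glia were also read. Oligodendrocyte markers summed to 686, 4013, 398, 79.2 and 325 CPM in *Fezf2+ve* libraries 1 to 5 and 852, 348, 166, 80.4 and 101 CPM in the *Fezf2−ve* libraries, with 6 of 6 markers detected and *Mbp* the most abundant. Astrocyte markers summed to 753, 7608, 644, 1682 and 462 CPM and to 744, 247, 88.9, 3799 and 45.9 CPM, with 8 of 9 detected, *Slc1a2* the most abundant and *Gfap* at 0 throughout. Among *Fezf2+ve* libraries both sums were highest in library 2, which held the *Jup* and *Ctnna1* peaks. For astrocytes that rested on *Slc1a2*, with 778 of the 819 reads there, and without it the list was highest in *Fezf2+ve* library 4 (1583 CPM), against 381 CPM in library 2. That value too was mostly 1 gene, as *Slc1a3* held 238 of the 255 astrocyte reads in *Fezf2+ve* library 4. The oligodendrocyte list without *Mbp* was highest in *Fezf2+ve* library 2 (1328 CPM). Any part of these signals in the *Jup* and *Ctnna1* values was not tested.

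Markers of oligodendrocyte precursors summed to 1634, 2239, 720, 59.4 and 4568 CPM in *Fezf2+ve* libraries 1 to 5 and 1102, 280, 842, 89.9 and 1121 CPM in the *Fezf2−ve* libraries, with 4 of 4 detected. The list was highest in *Fezf2+ve* library 5, as *Ctnnd2* was (1426 CPM), but 819 of its 929 reads there were on *Vcan*, the most abundant gene. Without *Vcan* the *Fezf2+ve* sums were 1380, 2220, 296, 59.4 and 541 CPM and the *Fezf2−ve* sums 548, 258, 788, 80.4 and 1116 CPM, highest in *Fezf2+ve* library 2. Any part of this signal in the *Ctnnd2* values and fold change, or in those of the other 8 genes, was not tested.

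Microglia markers separated the types. They summed to 245, 167, 84.7, 66.0 and 118 CPM in *Fezf2+ve* libraries 1 to 5 and to 6336, 4263, 6751, 1623 and 3945 CPM in the *Fezf2−ve* libraries, with 10 of 10 detected, *Ctss* the most abundant and no overlap between the types. Red blood cell genes summed to 1507, 186, 16.9, 0 and 0 CPM and to 7093, 5609, 367, 478 and 9.19 CPM, with 7 of 7 detected and *Hbb-bs* and *Hbb-b1* the most abundant (410 reads each). Counts were equal in every library within the pairs *Hba-a1* and *Hba-a2*, *Hbb-bs* and *Hbb-b1*, and *Hbb-bt* and *Hbb-b2*, so these sums may count a read more than once. The *Fezf2−ve* values of the 9 genes and their partners were measured beside these signals, whose part in them was not tested.

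Markers of the labeled cells had few reads beside those of several glial lists. Over the 10 libraries excitatory neuron markers had 770 reads (588 on *Camk2a*) and layer 5 IT markers 889 (728 on *Rorb*). Microglia markers had 3876, astrocyte markers 2308 (1817 on *Slc1a2*), oligodendrocyte precursor markers 2072 (1008 on *Vcan*) and oligodendrocyte markers 879. The lists differ in their genes, and the make-up of the sorted cells was not tested. Excitatory neuron markers (7 of 7 detected) summed to 601, 399, 237, 26.4 and 83.6 CPM in *Fezf2+ve* libraries 1 to 5 and 101, 112, 3319, 52.0 and 41.3 CPM in *Fezf2−ve* libraries, where *Camk2a* held 529 of the 560 reads in *Fezf2−ve* library 3 and the others summed to 184 CPM, and *Slc17a7*, the vesicular glutamate transporter gene, had 0 to 3 reads a library. Layer 5 IT markers (6 of 6 detected) summed to 46.4 to 336 CPM in *Fezf2+ve* libraries and 78.1 to 4007 CPM in *Fezf2−ve* libraries, the highest being library 3, where *Rorb* held 646 of 676 reads and the others summed to 178 CPM. Of the layer 5 PT markers *Bcl11b* had 1 read, *Crym* and *Fam84b* none, and the sum was 0 to 177 CPM, mostly *Ldb2*. The interneuron sum (37.8 to 3945 CPM, 4 of 7 detected) was almost all *Erbb4*, with *Slc32a1*, *Pvalb* and *Vip* at 0.

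Endothelial markers, whose cells are rich in junctional catenins, summed to 8.46 to 83.6 CPM (8 of 8 detected, *Flt1* the most abundant), and mural and fibroblast markers had 11 reads in all (3 of 8 detected, *Pdgfrb* the most abundant, *Vtn*, *Acta2* and *Col1a1* at 0). *Fezf2+ve* library 2 had the highest sum of both lists in CPM, from 9 endothelial reads and 3 mural and fibroblast reads, all 3 on *Pdgfrb*. In reads *Fezf2−ve* library 5 was highest for both, with 15 and 4. These counts are low, and the part of such cells in the *Jup* and *Ctnna1* values was not tested. Dentate granule cell markers, a list that holds *Dsp*, summed to 13.8 to 3397 CPM, nearly all from *Pdzd2*, with *Prox1*, *Tdo2* and *Plk5* at 0.

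**Figure D5:**
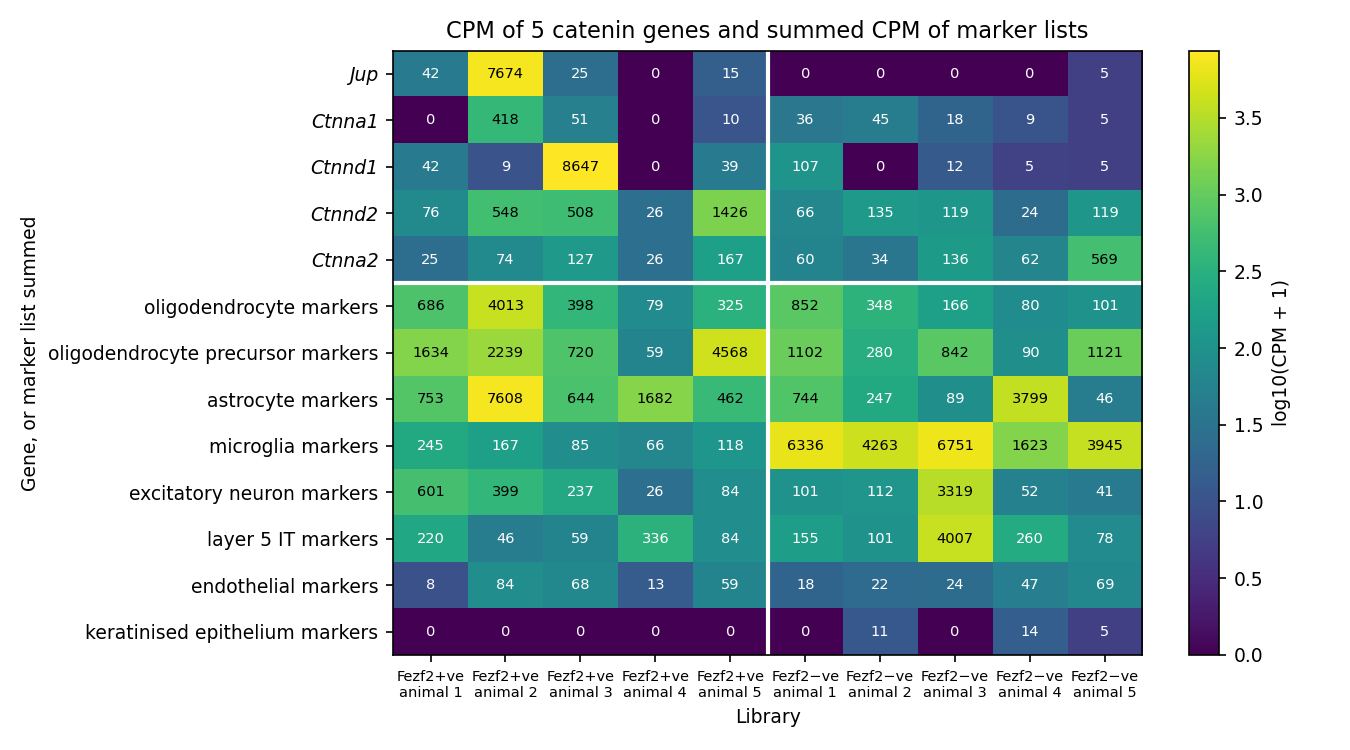
CPM of 5 catenin genes (upper part) and summed CPM of 8 marker lists (lower part) in each library, printed in each field and colored by log10(CPM + 1). *Fezf2+ve* animal 2 is high for *Jup*, *Ctnna1* and oligodendrocyte markers, its astrocyte sum is almost all *Slc1a2*, and microglia markers are high in all *Fezf2−ve* libraries.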

How the data were processed

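RNA of sorted cells was amplified with ERCC spike-ins, barcoded oligo-dT reverse transcription, 20 PCR cycles and in vitro transcription, and sequenced on a MiSeq. The authors demultiplexed and trimmed the reads (bcl2fastq 1.8.4, sabre, FASTX), mapped them to mm10 with TopHat2 2.1.1 and deposited raw read counts per gene, made with BEDTools 2.26.0 on RefFlat genes. These counts, and those of ERCC transcripts made likewise, were used as deposited. A further table holds the authors' own comparison and was not used.

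CPM was computed per 1000000 reads on genes, without ERCC. Tests took the genes that reached 10 CPM in 2 or more libraries, with edgeR 4.0.16 (R 4.3.3), by the quasi-likelihood method with TMM scaling, type and animal as factors and Benjamini-Hochberg adjusted p at or below 0.1. The SE of an edgeR log2 fold change was its absolute value divided by the square root of the quasi-likelihood F statistic. DESeq2 1.42.0, other scalings and filters, leaving out animals or libraries, and no animal block were alternatives. The steps were tested on simulated data. Figures and permutation tests used Python 3.11.15 with scipy 1.17.1. Positions, lengths and coding sequences came from the GENCODE annotation of GRCm38.

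Pairing came from the methods, by which both fractions of a number come from 1 animal. Deviations from the type means of paired libraries correlated at 0.03 on average (-0.03 to 0.10, 5 pairs).

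The members and lists were chosen with earlier results of these data known. Named genes were the 9 members, the 3 genes within α-catenin genes, for each partner list the called genes and otherwise up to 4 with the most reads, genes within 100 kb of *Jup*, and the 5 genes with the highest Pearson correlation to *Jup* and to *Ctnnd1*. The 8 partner lists and 13 marker lists are those whose results are given. A gene left out of the oligodendrocyte list is not reported here.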

Additional observations from a re-analysis of the deposited data

Results flagged for a closer look

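In each group of 5 libraries of a type, the gap between the highest or lowest value and its nearest neighbor was divided by the range and compared with 0.71, Dixon's 95% limit. Chance passes about 1 in 20 groups when values follow a normal distribution, which low counts do not. In 10 of the flagged groups the other 4 libraries were all at 0, and such a group passes by construction. Here 46 of 116 groups passed, 7 of 20 for the 9 members and their sum in the 2 types, 3 of 6 for the genes within α-catenin genes, 25 of 64 for partner genes and 11 of 26 for marker lists. All values below are CPM in the library that stood apart, and their causes were not tested.

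Among the members, *Jup* stood apart at 7674 in *Fezf2+ve* library 2 and at 4.59 in *Fezf2−ve* library 5, the latter a single read. *Ctnna1* stood apart at 418 in *Fezf2+ve* library 2 and *Ctnna2* at 569 in *Fezf2−ve* library 5. *Ctnnd1* did so at 8647 in *Fezf2+ve* library 3 and at 107 in *Fezf2−ve* library 1, and *Dsp* at 4.73 in *Fezf2−ve* library 4, again a single read. Of the inner genes, *Lrrtm1* stood apart at 35.6 in *Fezf2−ve* library 3, and *Lrrtm2* at 16.9 and *Lrrtm3* at 186 in *Fezf2+ve* library 3. *Ctnnb1*, *Ctnna3*, *Ctnnd2* and *Pkp4* had no such library in either type.

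Among partner genes in *Fezf2+ve* IT-PNs, library 1 stood apart for *Lrrc7* (4580), library 2 for *Cdh11* (3186), *Cdh7* (121) and *Tjp1* (399), library 3 for *Cdh20* (237) and *Lef1* (16.9), library 4 for *Magi1* (3549) and *Pkp2* (6.60), and library 5 for *Lrp6* (68.8). In *Fezf2−ve* IT-PNs, library 1 stood apart for *Magi2* (15270) and *Arvcf* (107), library 2 for *Apc2* (460), and library 3 for *Cdh20* (207) and *Pygo2* (5.93). Library 4 did so for *Tcf7l2* (10820), *Lrp5* (8667) and *Fbxw11* (2654), and on the low side for *Ror1* (0). Library 5 did so for *Dvl3* (12469), *Erbb2ip* (5888), *Btrc* (5805), *Cdh7* (239), *Ctnnal1* (156), *Dsg1b* (13.8) and *Pkp2* (9.19).

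Among summed marker lists, *Fezf2+ve* library 2 stood apart for oligodendrocytes (4013), astrocytes (7608), layer 5 PT neurons (177) and mural cells and fibroblasts (27.9), library 4 for interneurons (3945) and library 1 for red blood cells (1507). In *Fezf2−ve* IT-PNs, library 3 stood apart for excitatory neurons (3319) and layer 5 IT neurons (4007), library 4 for astrocytes (3799) and dentate granule cells (3397), and library 5 for interneurons (1392). In 9 of these 11 groups a single gene held at least 90% of the list's reads in that library, among them *Camk2a* (94.5%) for excitatory neurons, *Rorb* (95.6%) for layer 5 IT neurons and *Slc1a2* for astrocytes (778 of 819 reads in *Fezf2+ve* library 2 and 791 of 803 in *Fezf2−ve* library 4). Such a peak is that of 1 gene and not of its list. The exceptions were oligodendrocytes (*Mbp*, 66.9%) and red blood cells (*Hbb-bs*, 22.5%).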

How the results depend on the processing

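The count of called genes moved from 0 of 7409 to 279 with no animal block, to 98 with DESeq2 and, in an alternative chosen after seeing the data, to 638 with the legacy quasi-likelihood method and no block. Without 1 library and without the block it was 0 to 15, the latter without *Fezf2−ve* library 1. Leaving out an animal, other scalings and other filters gave 0. Partner genes called moved from 0 to 4 with no block and to 5 with the legacy method and no block, where *Cdh11* joined, and were 0 otherwise. That last setting called 2 members, *Jup* and *Ctnnd1*. The causes were not tested. The all-gene median of -0.16 went to -0.19 and -0.21 with library size scaling and RLE, to -0.31 without animal 2 and -0.29 without animal 5. With no block it was -0.20, and without 1 library it ran from -0.48 (*Fezf2+ve* library 2) to 0.01 (*Fezf2−ve* library 5). Over the alternatives the fold change of *Jup* ran from 3.33 to 10.34 and that of *Ctnnd1* from -0.01 to 7.68, the latter without *Fezf2−ve* library 1. The *Jup* value of 10.34 came from a fit with no *Fezf2−ve* read of that gene. Of 186 alternative fold changes of members 7 changed sign, of which 4 were for *Ctnna1* and 1 each for *Ctnna2*, *Ctnna3* and *Ctnnd1*. Of 593 values for 25 partner genes 57 changed sign. Pairs of neighboring levels did not pass, but with 5 animals or fewer the smallest p was 0.0625 or more, so this is no measure of stability. Only *Ctnna2*, *Ctnna3* and *Ctnnd2* reached 3 reads in every library, and at this depth a low level of the other 6 cannot be told from 0. Taking off the reads of the genes within α-catenin genes moved *Ctnna3* from 0.42 to 0.08. This step, leaving out single libraries, other than *Fezf2+ve* library 2, and leaving out animals per kb of span, where *Ctnnd1* went from place 2 to 4 without animal 3, were chosen after seeing the data.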
